A study of Mus musculus with 12 samples.

Results

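The genes Ccl2, Ccl7 and Ccl8, which encode the monocyte chemoattractant chemokines, and the receptor genes Ccr1 and Ccr2 were examined in blood monocytes (MNCs) and in Kupffer cells (KCs), the macrophages that reside in the liver. They were taken by their symbols and are 5 of 248 inflammation-related genes tested on the nCounter Mouse Inflammation V2 panel: 3 ligands and 2 receptors. All animals were Balb/C mice, with no treatment given in the labels for either cell type. The MNC group held 6 samples from blood, taken after a Ficoll gradient, and the KC group held 6 samples from liver, taken after perfusion, digestion with collagenases I and IV and a Lympholyte gradient. Both cell types were then sorted with magnetic beads that bind F4/80, found on the surface of mouse macrophages. The cells of several mice were pooled for a sample (5 by the labels, 4 to 5 by the methods of the study), and 100 ng of total RNA entered each reaction. Whether blood and liver of the same mice were used is not given in the sources used here, so the p-values measure the spread between these pools.

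CC chemokines are small secreted proteins that guide leukocytes by binding receptors coupled to G proteins. CCL2 and CCL7 bind CCR2, the receptor by which inflammatory monocytes leave the bone marrow and enter injured tissue, the liver included; CCL8 is their close relative, for which CCR8 is also a receptor in the mouse. CCR1 is bound by CCL3, CCL5 and CCL7 and is found on monocytes, macrophages and neutrophils. In the annotation of GRCm38.p6 the ligand genes lie together on chromosome 11, in the order Ccl2, Ccl7, Ccl11, Ccl12 and Ccl8. The receptor genes are neighbours on chromosome 9, in the order Ccr1, Ccr1l1, Ccr3 and Ccr2. Ccl12 and Ccr1l1 are not among the genes tested.

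In the assay a colour-coded probe pair is hybridised to each mRNA and the codes are counted one by one. The deposited signal is a normalized count, the number of counted codes times 1 factor for each sample (a lane), with the background of a lane set at its highest negative control. The factor was 0.554 to 1.13 in MNCs and 1.30 to 2.17 in KCs, and 162988 to 348248 molecules were counted above the background in an MNC sample against 84401 to 145662 in a KC sample. A gene at the background is listed there without the factor, at 5 to 27 in MNCs and 7 to 14 in KCs, while the background times the factor is 5.63 to 15.7 in MNCs and 11.7 to 30.4 in KCs. The higher of these values in each lane is used below as the upper limit of a gene at the background. A gene at the background in all 12 samples, such as Ccl11, was therefore listed lower in KCs by 0.64 on the log2 scale with nothing measured in either cell type. In the MNC lanes with a factor under 1, a gene was also listed at the background where its count was over the background but the product with the factor was under it.

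The labels were set against markers on the panel. The monocyte and macrophage genes Itgb2 and Tyrobp were measured in all 12 samples, with summed normalized counts of 10921 to 15894 in MNCs and 4141 to 6133 in KCs. Of the Kupffer cell markers listed, Cd163 alone is on the panel. It had 52.3 to 110 in MNCs and 87.4 to 309 in KCs, ranges that overlap, and was higher in KCs by 1.11 on the log2 scale (limma adjusted p = 0.00691). Genes also used as markers of peritoneal macrophages (Retnla, Alox15, Tgfb2 and Ccl24) were lower in KCs in 4 of 4 cases, with sums of 20677 to 32802 in MNCs and 336 to 524 in KCs. Genes of proteins secreted by hepatocytes were higher in KCs in 11 of 11 cases, with sums of 4942 to 16576 in KCs and 71.5 to 297 in MNCs, where 8 of the 11 were at the background in all samples. The T and NK cell genes were higher in KCs in 5 of 8 cases, with sums of 2077 to 3674 in MNCs and 3581 to 5638 in KCs, and the endothelial gene Flt1 was at 9.01 to 27.0 in MNCs and 52.2 to 151 in KCs. In samples of sorted cells, fewer cells of a type and less RNA per cell cannot be told apart.

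Of the 5 genes, 2 were called (limma, adjusted p under 0.05), both lower in KCs: Ccr1 and, with most of its values at the background, Ccl7. Over all genes tested, 56.5% were called, 35.1% higher and 21.4% lower in KCs, so that 2 of 5 is no larger a share than the background. The median log2 difference of the 5 genes was -0.97, against 0.05 over all genes. Of all calls, 62.1% were higher in KCs, a share that was 38.6% when each sample was rescaled to its median, 47.7% after quantile normalization and 50.0% without MNC sample 2. Without MNC sample 2, 4 of the 5 genes were called: Ccr1, Ccl2, Ccl7 and Ccl8. The calls over all genes also rose in that setting, to 172 from 140, and those lower in KCs to 86 from 53. Most of the Ccl7 values left were at the background, and for Ccl8 every MNC value left was a listed background. The count of 4 therefore depends in part on how the background is listed.

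**Figure D1:**
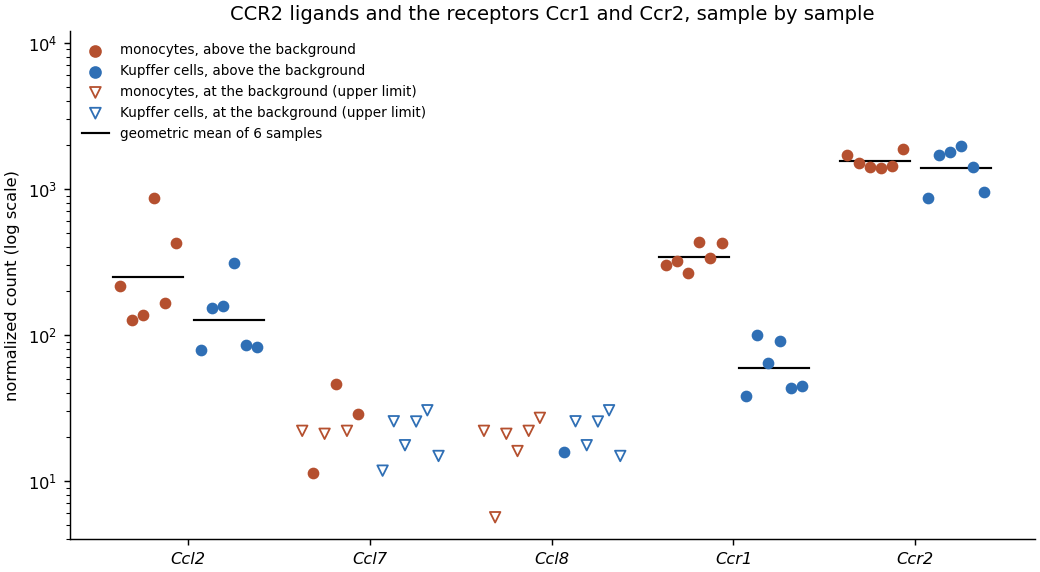
Normalized counts (log scale) of the 3 ligand genes and the 2 receptor genes in each of the 6 MNC samples (brown) and 6 KC samples (blue), in the order of the sample numbers. Open triangles are upper limits of samples at the background and black lines are geometric means; the groups are apart only for Ccr1, while Ccl2 and Ccr2 overlap and Ccl7 and Ccl8 are mostly limits.

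Ccl2, the main attractant of monocytes, was measured above the background in all 12 samples. In MNC samples 1 to 6 it had 217, 127, 137, 869, 166 and 426 normalized counts. In KC samples 1 to 6 it had 78.3, 152, 158, 312, 84.8 and 82.4. MNC samples 4 and 6 were the highest of all, KC sample 4 came next, and the other samples of both cell types overlapped. Behind these values stood 113 to 1430 counted molecules in an MNC sample and 39 to 147 in a KC sample. The mean was 324 ± 289 in MNCs and 145 ± 89.7 in KCs (SD, n = 6 samples each), a geometric mean 1.95-fold higher in MNCs. The log2 difference of KCs from MNCs was -0.97 (SE 0.48, 95% confidence interval -2.01 to 0.08), which did not pass the test (limma adjusted p = 0.1). It was called when each sample was rescaled to its median (-1.23, adjusted p = 0.0358 from limma), a step that moved the median of all genes by -0.26. It was also called without MNC sample 2 (-1.16, adjusted p = 0.0459) or without KC sample 4 (-1.23, adjusted p = 0.0403), while without MNC sample 4, the highest, it shrank to -0.61 (adjusted p = 0.203).

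The spread of Ccl2 between samples of 1 cell type was large. Its SD of log2 values in MNCs, 1.08, ranked 1 of the 160 genes measured above the background in all 12 samples, whose median SD was 0.22. In KCs its SD was 0.78, rank 10 of 160, with a median SD of 0.35. The highest MNC sample held 6.83 times the lowest, and the highest KC sample 3.99 times the lowest.

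Ccl7, which binds CCR1 as well as CCR2, was above the background in 3 of 6 MNC samples and in none of the KC samples. MNC sample 4 had 46.2 normalized counts, MNC sample 6 had 28.8 and MNC sample 2 had 11.3, from 76, 52 and 10 counted molecules. The other 3 MNC samples were at the background, with limits of 21 to 22. In KC sample 1 the count, 9, equalled the background of the lane, and the upper limits of the 6 KC samples were 11.7 to 30.4. Only MNC sample 4 was above all of the KC limits. The samples with the most Ccl7 were again MNC samples 4 and 6, those with the most Ccl2. As listed, Ccl7 was lower in KCs by 1.01 on the log2 scale (SE 0.28, adjusted p = 0.00657 from limma), more than Ccl11, its neighbour at the background throughout. The call was lost when each background value was replaced by its upper limit (log2 difference -0.21, adjusted p = 0.612), with all values under 30.4 set to that floor (-0.10, adjusted p = 0.455) and after quantile normalization (-0.70, adjusted p = 0.0993).

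Ccl8 was not measured above the background in any of the 6 MNC samples, and was above it in 1 of 6 KC samples. KC sample 1 had 15.7 normalized counts, from 12 counted molecules against a background of 9. In KC sample 3 the count of 9 equalled the background, and the other 4 KC samples were at it. The upper limits were 5.63 to 27.0 in MNCs and 14.8 to 30.4 in the 4 KC samples. No difference was detectable at this depth: the listed values gave a log2 difference of -0.37 (SE 0.34, adjusted p = 0.347 from limma). With the upper limits in place of the background values it was 0.26 (adjusted p = 0.555 from limma). Without MNC sample 2, whose lane had the lowest background, it was -0.68 as listed (adjusted p = 0.0113 from limma). Every MNC value in that fit was a listed background, so the call does not rest on Ccl8 measured in MNCs.

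Ccr1, a receptor for inflammatory CC chemokines, was lower in KCs in every pairing of samples. In MNC samples 1 to 6 it had 303, 322, 264, 429, 336 and 423 normalized counts. In KC samples 1 to 6 it had 37.8, 100, 64.3, 91.4, 43.5 and 44.4. The groups did not overlap, as for 41.5% of all genes tested. The mean was 346 ± 66.4 in MNCs and 63.6 ± 26.7 in KCs (SD, n = 6 samples each), 5.67-fold higher in MNCs by geometric means. The log2 difference was -2.50 (SE 0.25, 95% confidence interval -3.04 to -1.97, adjusted p = 1.16e-06 from limma), and the exact permutation test gave the smallest p that 6 against 6 samples allow (p = 0.00216, two-sided). Every alternative tried kept the direction and the call, with differences of -3.20 to -2.33. The KC values rested on 20 to 55 counted molecules and the MNC values on 286 to 764, and KC sample 5 lay 1.43 times over its own multiplied background.

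The bases upstream of the start of Ccr1 are shown because it was the only one of the 5 genes with separate groups and all samples above the background. The sequence is from RefSeq (GRCm38.p6, chr9:123968693-123968942, minus strand), and its last base is the one before the start.
Ccr1: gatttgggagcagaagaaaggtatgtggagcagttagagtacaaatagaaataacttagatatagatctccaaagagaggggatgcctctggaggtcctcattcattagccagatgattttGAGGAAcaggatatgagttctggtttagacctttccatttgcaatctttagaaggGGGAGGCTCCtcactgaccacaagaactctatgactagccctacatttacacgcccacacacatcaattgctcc
The capitals mark the only matches, on either strand, to the core GAGGAA of PU.1, a factor of myeloid cells, with its first base at -129 from the start, and to a short form of the NF-kB motif (GGGA, any 4 bases, then CC), at -74. Of 32851 windows of this length upstream of gene starts, 23.3% hold GAGGAA, 17.6% hold the NF-kB form and 6.75% hold TGANTCA, the AP-1 motif, which was not found here. The window of Ccl8 holds GAGGAA alone of these and that of Ccr2 none. A match of letters is a description of this window and was not measured as a bound site.

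Ccr2, the receptor of CCL2 and CCL7 and a usual marker of classical monocytes, did not differ beyond the spread between samples. In MNC samples 1 to 6 it had 1712, 1495, 1405, 1387, 1433 and 1884 normalized counts. In KC samples 1 to 6 it had 866, 1712, 1783, 1978, 1400 and 953. The KC samples lay on both sides of the MNC range, with 2 of 6 below it and 1 above it. The mean was 1553 ± 201 in MNCs and 1449 ± 458 in KCs (SD, n = 6 samples each). The log2 difference was -0.16 (SE 0.21, adjusted p = 0.508 from limma), and its 95% confidence interval, -0.61 to 0.30, leaves room for either direction. No alternative gave a call, with differences of -0.42 to -0.02.

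The ligands were then set against the receptors within each sample, where the lane factor cancels for genes above the background. Such a ratio depends on both probes, so it was compared only between the cell types. Ccl2 over Ccr1 was 0.717, 0.395, 0.518, 2.03, 0.496 and 1.01 in MNC samples 1 to 6. It was 2.07, 1.51, 2.46, 3.42, 1.95 and 1.86 in KC samples 1 to 6. KC samples 1, 3 and 4 exceeded every MNC sample, and MNC sample 4 lay among the KC samples. The log2 ratio was higher in KCs by 1.54 (exact permutation test, p = 0.00866, adjusted p = 0.0173 over 6 ratios). Ccl2 alone differed by -0.97, not called, and Ccr1 alone by -2.50, so the higher ratio reflects the lower Ccr1. CCL2 is not among the ligands of CCR1 named above, so this ratio does not describe a ligand with its own receptor. Ccl2 over Ccr2 was 0.0851 to 0.627 in MNCs and 0.0606 to 0.158 in KCs, with a log2 difference of -0.81 that did not pass (exact permutation test, p = 0.0952, adjusted p = 0.114). Without MNC sample 2 that difference was -0.99 (exact permutation test, adjusted p = 0.0442), and without MNC sample 4 it was -0.42 (adjusted p = 0.244).

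The receptors were also set against each other, a comparison added after the values were seen. Ccr1 over Ccr2 was 0.177 to 0.309 in MNCs and 0.0311 to 0.0587 in KCs, with no overlap. The log2 difference was -2.35 (exact permutation test, p = 0.00216). The ratios with Ccl7 and Ccl8 rest on a listed background of the ligand in 8 and 10 of 12 samples. Ccl7 in KC sample 1 and Ccl8 in KC sample 3 also had counts that only equalled the background. Over Ccr1 they were higher in KCs by 1.49 and 2.14 on the log2 scale (exact permutation test, adjusted p = 0.00649 for each), and Ccr1 alone fell by 2.50. Both sizes depend on how the background is listed. For Ccl7 the difference was 2.29 with the upper limits and 2.41 with the common floor. For Ccl8 it was 2.76 and 2.50, the latter the size of Ccr1 alone. Over Ccr2 the difference was -0.85 for Ccl7 (exact permutation test, adjusted p = 0.0422) and -0.21 for Ccl8 (adjusted p = 0.606). The former was -0.06 with the upper limits in place of the background (adjusted p = 0.872). It was also not called without any 1 of MNC samples 3, 4, 5 and 6 and KC samples 2, 3, 4 and 6 (adjusted p = 0.0617 to 0.0844), so that its call held in 5 of 17 alternatives.

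**Figure D2:**
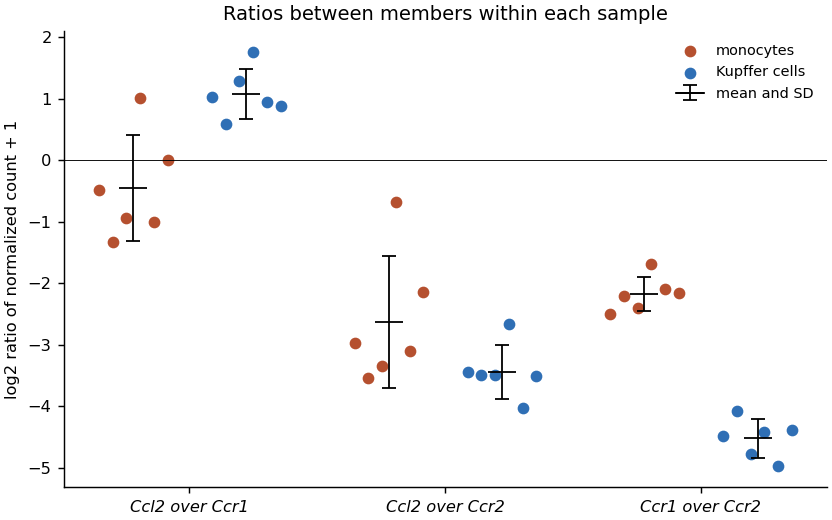
Log2 ratio of normalized count + 1 within each sample for Ccl2 over Ccr1, Ccl2 over Ccr2 and Ccr1 over Ccr2, in 6 MNC (brown) and 6 KC (blue) samples; bars are the mean and SD. The mean of Ccl2 over Ccr1 was -0.46 in MNCs and 1.08 in KCs, and the groups of Ccr1 over Ccr2 are apart, at -2.17 and -4.52.

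How the members varied together was read within each cell type. Of the pairs Ccl2 with Ccl7, Ccl2 with Ccl8, Ccl7 with Ccl8 and Ccr1 with Ccr2 in each cell type, only the receptor pair had enough values above the background, which left 2 relations. In KCs Pearson's r of Ccr1 with Ccr2 was 0.84 over 6 samples (exact permutation p = 0.0514, adjusted p = 0.103) and Spearman's rho was 0.77 (exact permutation p = 0.103, adjusted p = 0.206). Without KC samples 2 and 4, the farthest from the median, r was 0.86. In MNCs r was 0.28 (exact permutation p = 0.608) and rho -0.09 (exact permutation p = 0.919), and r was 0.14 without MNC samples 4 and 6. Neither relation passed the test, and the cell types were not compared in this respect.

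In KCs, samples 2, 3 and 4 were above samples 1, 5 and 6 for Ccl2, for Ccr1 and for Ccr2. Tlr8, a receptor of single-stranded RNA, was chosen after its values were seen, as the gene closest to Ccr1 over the KC samples. It showed the same split, with 44.4, 104, 81.9, 91.4, 60.9 and 46.5 normalized counts in KC samples 1 to 6. The summed Itgb2 and Tyrobp were 4319, 5975, 6133, 5834, 5199 and 4141 in the same samples, also higher in samples 2, 3 and 4. Cd163, the Kupffer cell marker on the panel, had 87.4, 309, 123, 295, 163 and 125 normalized counts, without this split. The sums of the hepatocyte genes were 4942, 16576, 9004, 12158, 12664 and 8294, without this split. The part of these marker genes in the order of the samples was not tested.

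In MNCs, samples 4 and 6 were the highest for Ccl2, Ccl7 and Ccr1. Among genes chosen after their values were seen, the closest to Ccl2 over the MNC samples were Il1a, Cxcl1, Il6, Cxcl2 and Arg1. Their root mean square differences of centred log2 values were 0.16, 0.27, 0.44, 0.51 and 0.60. All but Arg1 encode inflammatory mediators. Il1a, the cytokine interleukin 1 alpha, had 101, 61.9, 67.3, 331, 65.2 and 209 normalized counts in MNC samples 1 to 6. Cxcl1, an attractant of neutrophils, had 1676, 809, 900, 3895, 1047 and 3412 in these samples. Il6 had 226, 149, 168, 425, 167 and 384, so that samples 4 and 6 were the highest for each of the 3 genes. The same samples had the highest sums of early response genes, which cell isolation can induce, 19850 and 17117 against 10295 to 12634, a list that holds Cxcl1, Cxcl2 and Il6. They had the lowest sums of the T and NK cell genes, 2443 and 2077 against 3212 to 3674. Their summed Itgb2 and Tyrobp were the highest, 13879 and 15894 against 10921 to 12655. The sums of the peritoneal macrophage genes were also the highest in them, 27003 and 32802 against 20677 to 25863. The part of these gene lists in the values of Ccl2 was not tested.

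**Figure D3:**
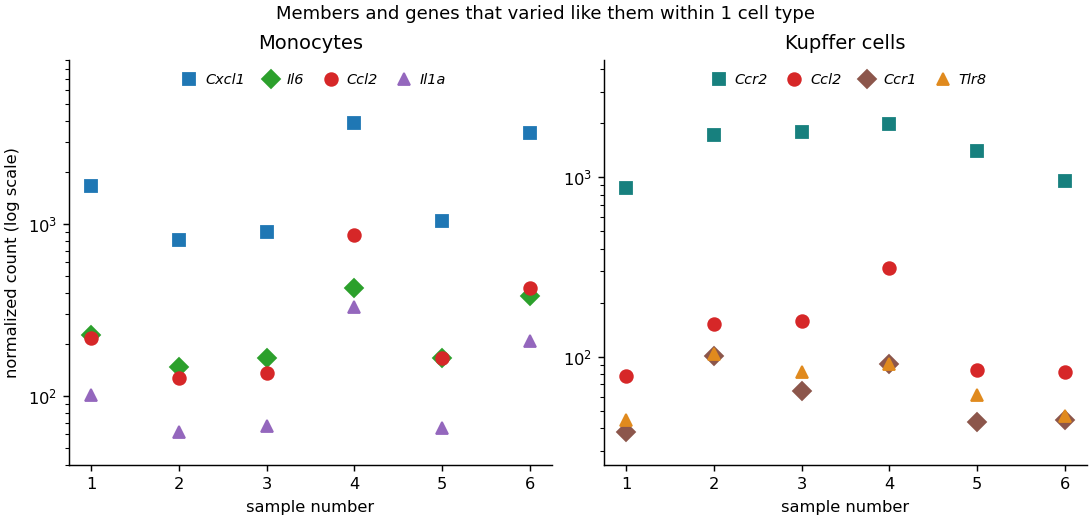
Normalized counts (log scale) by sample number of Ccl2, Cxcl1, Il6 and Il1a in 6 MNC samples (left) and of Ccr2, Ccl2, Ccr1 and Tlr8 in 6 KC samples (right). In MNCs samples 4 and 6 are the highest for all 4 genes, at 869 and 426 for Ccl2, and in KCs samples 2, 3 and 4 are the highest for all 4.

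Over all 12 samples, the genes with a pattern most like that of a member were found among 196 genes that 6 samples or more held above the background, by the root mean square difference of log2 values centred on each gene's mean. For Ccl2 they were Il1a at 0.49, C4a, a complement gene, at 0.67 and Cebpb, a transcription factor of myeloid cells, at 0.68, against a median of 1.17 over the genes. For Ccr1 they were C3ar1, the receptor of complement C3a, at 0.28, Ccl24, an attractant of eosinophils, at 0.29 and C1qa, a chain of complement C1q, at 0.30, against a median of 1.5. For Ccr2 they were Il6ra at 0.19, Mapk14 at 0.24 and Il1rap at 0.26, against a median of 0.63. The same 3 genes were nearest to each member when samples were rescaled to their medians.

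C3ar1 had 725 ± 224 normalized counts in MNCs and 135 ± 30.5 in KCs (SD, n = 6 samples each), and C1qa had 3064 ± 931 and 713 ± 319. Il6ra, a receptor chain of interleukin 6, had 739 ± 48.9 in MNCs and 689 ± 209 in KCs. These values describe genes picked for their likeness to a member over the same samples, so the difference between the cell types is part of the choice and was given no test.

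Of 15 other CC chemokine genes listed, 10 are on the panel: 3 were higher in KCs, 2 lower and 5 not called, with a median log2 difference of 0.25. The higher ones were Ccl3, Ccl4 and Ccl5, whose products draw monocytes and T cells. Ccl3 had 454 ± 87.0 normalized counts in MNCs and 1870 ± 437 in KCs, and Ccl4 had 55.1 ± 5.82 and 344 ± 87.3 (SD, n = 6 samples each). Ccl5, which T and NK cells also make, had 3906 ± 1072 in MNCs and 14244 ± 9941 in KCs. The groups did not overlap for any of the 3, and the log2 differences were 2.03, 2.59 and 1.69 (limma adjusted p = 3.04e-07, 2.61e-08 and 0.000854). Ccl3 and Ccl4 are also on the list of early response genes, where 6 of 11 genes were higher and 3 lower in KCs.

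Ccl24 had 830 ± 236 normalized counts in MNCs and 129 ± 54.9 in KCs (SD, n = 6 samples each), a log2 difference of -2.73 (limma adjusted p = 1.07e-06), the size of that of Ccr1. Ccl17, an attractant of T cells that bear CCR4, was at 26.1 to 42.9 in MNCs and at the background in all 6 KC samples, with limits of 11.7 to 30.4 that overlap the MNC range. It was called lower as listed (-1.67, adjusted p = 4.66e-06 from limma). Of the genes not called, Ccl22 was lower by 0.65 as listed (adjusted p = 0.0668 from limma), with 3 KC samples at the background. Ccl19, Ccl20 and Ccl21a were at it in 5 of 6 MNC samples each, and Ccl11 in all 12 samples.

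Of 8 other CC receptor genes listed, 3 are on the panel, with a median log2 difference of 1.04. Ccr3, the eotaxin receptor of eosinophils, which lies between Ccr1 and Ccr2 on chromosome 9, went opposite to Ccr1. It had 70.1 to 203 normalized counts in KCs and 17.6 to 27.0 in MNCs, where 4 of 6 samples were at the background, a log2 difference of 2.48 as listed (limma adjusted p = 7.34e-07). Of 6 granulocyte genes listed, 5 are on the panel, of which Ccr3 alone was called higher; Cxcr1 was called lower with 5 MNC and 6 KC samples at the background, and Cxcr2 differed by -0.26 (limma adjusted p = 0.475). Ccr4, a receptor of T cells, was higher in KCs by 1.04 as listed (limma adjusted p = 0.00262), with 3 of 6 MNC samples at the background. Ccr7, the receptor that leads T cells and dendritic cells to lymph nodes, had 2060 ± 474 in MNCs and 1572 ± 647 in KCs and did not pass (log2 difference -0.48, limma adjusted p = 0.159). The T and NK cell genes were also higher in KCs in 5 of 8 cases, as given above, and their part in Ccr4 was not tested.

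**Figure D4:**
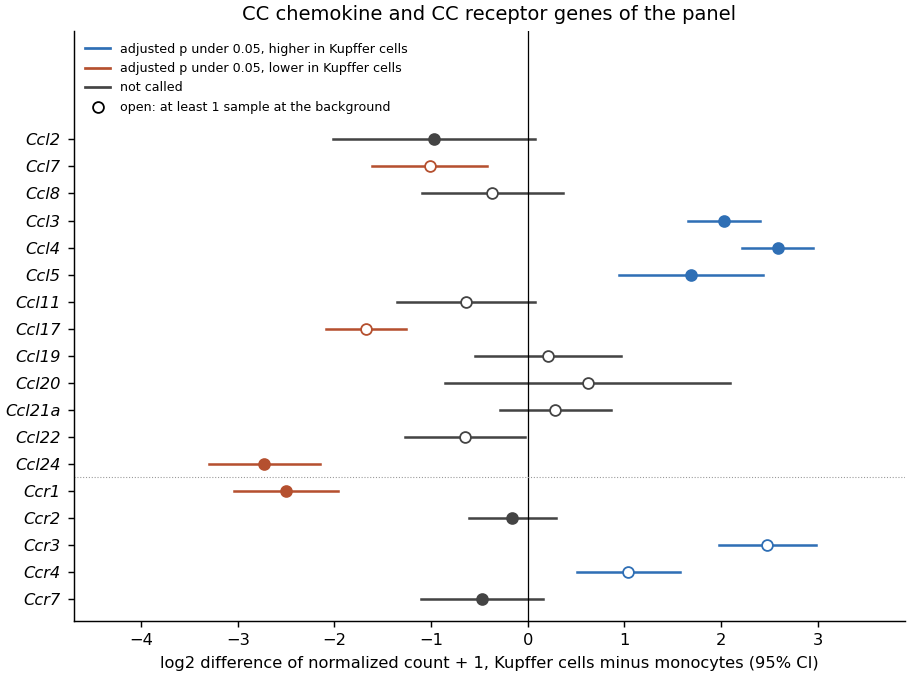
Log2 difference of normalized count + 1, KCs minus MNCs, with its 95% confidence interval from limma, for the 13 CC chemokine genes (above the dotted line) and 5 CC receptor genes of the panel. Colours mark adjusted p under 0.05 and open circles genes with at least 1 sample at the background; Ccr1 and Ccl24 lie farthest to the left, at -2.50 and -2.73, and Ccl4 farthest to the right, at 2.59.

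Genes upstream of Ccl2, whose products or signals are known to induce it, were also read. Of 14 on the list, all on the panel, 5 were higher in KCs, 3 lower and 6 not called, with a median log2 difference of 0.20. The largest differences were those of Ifng, Jun and Il6. Ifng, interferon gamma, a product of T and NK cells, had 26.4 ± 4.61 normalized counts in MNCs, 1 sample of which was at the background, and 314 ± 41.1 in KCs (log2 difference 3.53, limma adjusted p = 2.07e-10). Jun, a part of AP-1, had 1046 ± 353 in MNCs and 5146 ± 1285 in KCs (log2 difference 2.31, limma adjusted p = 8.75e-07). Il6 went the other way, with 253 ± 121 in MNCs and 60.5 ± 23.0 in KCs (log2 difference -1.99, limma adjusted p = 7.88e-05). Fos and Tnf were also higher in KCs, and Tlr2 and Tlr4, receptors of bacterial products, were the other genes lower. The NF-kB genes Nfkb1, Rela and Relb had differences of -0.12, 0.22 and 0.23, none called.

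Of 19 genes that signal below chemokine receptors, 4 were higher in KCs, 2 lower and 13 not called, with a median log2 difference of -0.07. Among the largest differences were Rapgef2, an activator of Rap proteins, at 0.73 (limma adjusted p = 0.000135), and Gngt1, whose 12 values were all at the background. Rhoa and Gnaq were the genes called lower, by 0.49 and 0.48. The 6 differences that were called lay between -0.49 and 0.73. Of 8 genes of leukocyte adhesion and migration, 2 are on the panel. Itgb2, the beta chain of the leukocyte integrins, had 5684 ± 919 normalized counts in MNCs and 1719 ± 295 in KCs (SD, n = 6 samples each), lower in KCs by 1.73 (limma adjusted p = 4.59e-07). Cxcr4 differed by -0.16 and was not called (limma adjusted p = 0.561).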

How the data were processed

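Values were the deposited signal per gene and sample: nanostring counts that the authors normalized in nSolver 4.0 by positive controls and housekeeping genes (geometric means), with the background threshold at the highest of 8 negative controls. Within a lane, every value over the background lay within 0.02 of a whole number times 1 factor, which gave the counted molecules. Background values were not multiplied by it, so no count model was used. The number of counted molecules and the 6 samples per cell type set the precision.

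Differences were tested on log2(value + 1), which understates changes of low genes, with limma 3.58.1 in R 4.3.3 (12 samples, 2 groups, two-sided) and Benjamini-Hochberg adjustment over 248 genes at 0.05. Ratios were compared by exact permutation tests. Tested on simulated data for this comparison (248 genes), 17 of 20 genes changed by 1 and 19 of 20 changed by 2 on the log2 scale were recovered, and 2 of 208 unchanged genes were called. The changed genes were drawn from those above the background in all 12 samples, with a normal spread. The simulation did not model how background values are listed, so it does not cover calls of genes at the background, such as Ccl7 and Ccl8. Other steps used scipy 1.17.1, numpy 2.4.6 and pandas 2.3.3 under Python 3.11.15, with figures by matplotlib 3.10.9.

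The genes named are the members, the other CC genes, the 3 nearest profiles of each member and the 3 largest differences of the lists of inducers, signalling and adhesion; others were chosen after their values were seen. Members and lists, markers included, were chosen with earlier results of these data known. The replacement of background values by upper limits and the ratio of Ccr1 to Ccr2 were added after seeing the data. Other alternatives concerned the pseudocount, a filter, scaling, a common floor, the test, a replicate block and samples left out. Same-numbered samples deviated together only in part (correlations of -0.23 to 0.40, 3 of 6 over 0.1). No source used here pairs them, so the numbers were not taken to do so. Gene order came from RefSeq for GRCm38.p6, matched by symbol for 241 genes and by an older symbol for 6. Hprt and Tubb5 were not analysed here, and 1 gene that the naming rule covers is not reported here.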

Additional observations from a re-analysis of the deposited data

Results flagged for a closer look

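In 26 groups of 6 samples tested for a sample far from the others, 2 values stood out. Chance flags about 1 group in 20 where values are normally spread. The rule was applied to normalized counts without the log2 step, on which high values lie farther out. Whether the 2 values stand out on the log2 scale was not tested. Ccl2 in KC sample 4 was at 312.33 normalized counts, against 157.85 in the nearest KC sample, a gap of 0.66 of the whole range. Ccl5 in KC sample 1 was at 33369 normalized counts, against 16703 in the nearest KC sample, a gap of 0.632 of the range. KC sample 1 had the lowest Ccr1 of all samples, 37.8, and the lowest sum of hepatocyte genes among KC samples, 4942.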

How the results depend on the processing

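Ccr1, Ccr2, Ccr1 over Ccr2 and the relation of Ccr1 with Ccr2 in KCs kept direction and call in all alternatives. Ccl2 was called after rescaling to sample medians (-1.23) and ranged from -1.23 to -0.61 with 1 sample left out. Ccl7 lost its call after quantile normalization (-0.70), with the common floor (-0.10) and with upper limits for background values (-0.21). Ccl8 turned to 0.033 after quantile normalization and to 0.26 with upper limits, and ranged from -0.68 to -0.21 with 1 sample left out. The number of members called was 1 with quantile normalization, the floor or upper limits, and 2 to 4 with 1 sample left out. It was also 1 with the filter on low values, which removed Ccl7 and Ccl8 before the test. Calls over all genes numbered 126 to 176 in the alternatives, against 140. Genes called lower in KCs numbered 108 after rescaling to medians and 46 to 86 with 1 sample left out, against 53. Ccl7 over Ccr2 was -0.52 with a pseudocount of 10, 0.060 with the floor, -0.056 with upper limits and -1.04 to -0.63 with 1 sample left out. Ccl8 over Ccr2 was 0.16 with the floor and 0.42 with upper limits. Ccl2 over Ccr2 ranged from -0.99 to -0.42 with 1 sample left out. Pearson's r of Ccr1 with Ccr2 in MNCs ranged from -0.31 to 0.72 with 1 sample left out, and was -0.31 without MNC sample 6. The causes were not tested beyond what the background settings show by construction.

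With the replicate number as a block, Ccl2 over Ccr1 (1.54), Ccl7 over Ccr1 (1.49) and Ccl8 over Ccr1 (2.14) had an adjusted p of 0.0625 and Ccl7 over Ccr2 (-0.85) of 0.15, where the smallest p that 6 pairs allow is 0.0312 by the exact test; 2 of 6 samples correlated best with their own number. The block changed no call of a single member gene.

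Low counts limit Ccl7 and Ccl8 in both cell types and Ccr1 in KCs, and the 6 pools per cell type limit the rest.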
